A study of Mus musculus with 16 samples.

Results

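The effect of depleting the transcription factor TFAP2C was set directly against the effect of depleting TEAD4 in mouse 8-cell embryos, with no control library in the test. The comparison took all libraries labelled with either single knockdown, which were 8 of the 16 libraries in the series, 4 with Tfap2c knockdown and 4 with Tead4 knockdown. Knockdown was by double-stranded RNA injected into zygotes, so every group also carried an injected RNA, and the other 2 groups received double-stranded RNA against both genes or against GFP. Each library came from a pool of 10 embryos, about 80 cells, grown in KSOM medium, freed of the zona pellucida and amplified by a Smart-seq2 procedure. Every group had replicates A1 and A2 from mothers of C57BL/6J × CBA/J origin (cross A) and B1 and B2 from mothers of C57BL/6J × DBA/2J origin (cross B), with hybrid fathers labelled C57BL/6J crossed to a DBA strain. The labels do not say whether pools of 1 cross came from separate litters or injection days, so the tests measure the spread between these pools, which may be partly technical. A lower transcript level in a pool cannot be told apart from fewer cells that carry the transcript.

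TFAP2C belongs to the AP-2 family and TEAD4 to the TEAD family of DNA-binding transcription factors. TEAD proteins need the coactivator YAP1 or WWTR1, which the Hippo kinases LATS1 and LATS2 keep out of the nucleus. Around the 8-cell stage the blastomeres compact and form an apical domain rich in actin, and the outer cells later become trophectoderm, the lineage of the placenta, in which both factors are known to act. The comparison asks in which genes the loss of these factors gives different transcript levels.

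In all, 11422 genes reached 1 FPKM (a fragment count scaled to transcript length and library size) in at least 4 of the 16 libraries, out of 43437 genes in the table. The libraries of both groups were alike in overall measures. The number of genes at 1 FPKM or more averaged 10347.5 in Tfap2c knockdown and 10372 in Tead4 knockdown (two-sided exact permutation test, p = 0.714). Mitochondrially encoded genes took 8.60% ± 1.06 of the FPKM sum in Tfap2c knockdown and 9.03% ± 1.78 in Tead4 knockdown (SD, n = 4 each, exact permutation p = 0.8). All 8 markers of the preimplantation embryo were present. Their summed FPKM was 9785 to 11142 in Tfap2c knockdown and 11493 to 13573 in Tead4 knockdown, ranges that did not overlap. Of 12 cumulus cell markers 1 reached 1 FPKM in any of the 8 libraries, of 9 sperm markers 1, and of 8 blood markers 3. The blood markers summed to 36.1 to 67.3 FPKM in Tfap2c knockdown and 27.4 to 56.9 FPKM in Tead4 knockdown, with Hbb-bs, Hbb-bt and Ptprc at 0 in all 8 libraries. In this list Hba-a1 averaged 32.9 FPKM in Tfap2c knockdown and 19.9 FPKM in Tead4 knockdown and did not pass (adjusted p = 0.0557).

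Each targeted transcript was lower in its own knockdown. Tfap2c (chr2:172545678-172558622, GRCm38.p6) had 13.9, 15.4, 16.1 and 17.8 FPKM in Tfap2c knockdown and 37.1, 34.8, 33.7 and 33.4 FPKM in Tead4 knockdown. The groups did not overlap, and the log2(FPKM + 1) difference, Tfap2c knockdown minus Tead4 knockdown as everywhere here, was -1.09 ± 0.105 (SE; limma, adjusted p = 0.000227). Tead4 (chr6:128227143-128300813) had 19.0, 25.9, 37.4 and 30.8 FPKM in Tfap2c knockdown and 8.05, 5.57, 5.99 and 11 FPKM in Tead4 knockdown. It was higher in Tfap2c knockdown by 1.76 ± 0.208 (limma, adjusted p = 0.000639). Exact permutation of the 8 libraries gave p = 0.0286 for each gene, the smallest that 4 against 4 allows. Neither transcript was removed fully, and the remainder was larger for Tfap2c: its mean in Tfap2c knockdown was 0.455 of that in Tead4 knockdown, whereas the mean of Tead4 in Tead4 knockdown was 0.271 of that in Tfap2c knockdown. The GFP control averaged 35.7 ± 6.6 FPKM of Tfap2c and 48.6 ± 7.00 FPKM of Tead4 (SD, n = 4). Tead4 in all 4 libraries of Tfap2c knockdown lay below every control library (41.8 to 58.4 FPKM). The share of 0.271 for Tead4 was thus taken against a level below the control.

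**Figure D1:**
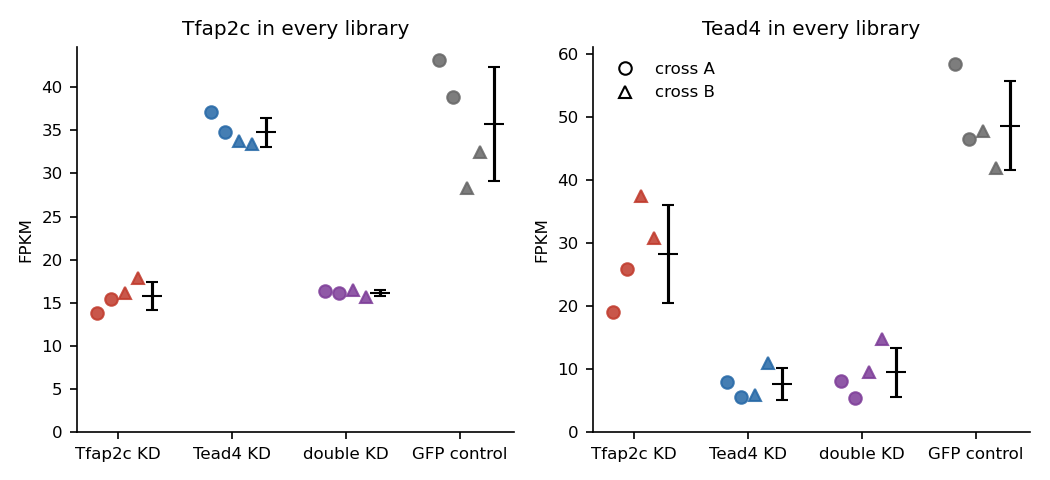
FPKM of Tfap2c (left) and Tead4 (right) in each library of the 4 groups, with circles for cross A, triangles for cross B, and black bars for the mean and SD of 4 libraries. Tfap2c lies between 13.9 and 17.8 FPKM in Tfap2c knockdown and between 33.4 and 37.1 FPKM in Tead4 knockdown, and Tead4 lies between 19.0 and 37.4 FPKM in Tfap2c knockdown and between 5.57 and 11 FPKM in Tead4 knockdown.

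Across the 11422 genes tested, 2813 differed between both knockdowns at an adjusted p under 0.05 (limma with cross as a term, Benjamini-Hochberg), a background of 24.6%. Of these, 1309 (11.5%) were higher and 1504 (13.2%) lower in Tfap2c knockdown. A total of 885 (7.75%) differed by more than 2-fold on the log2(FPKM + 1) scale, with 361 higher and 524 lower, and among differences over 4-fold 34 genes were higher and 104 lower. The 4 and 4 libraries did not overlap for 2117 of the 2813. Among all 11422 genes tested, called or not, 1184 were higher and 1348 lower without overlap. A low p favours such genes, so this count is no separate support. The median difference over all genes tested was 0.0078, and the median SE was 0.160. Without the library Tfap2c knockdown B2, the higher genes numbered 848, and a fit with the replicate number as a block called 1921 genes, 851 of them higher.

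**Figure D2:**
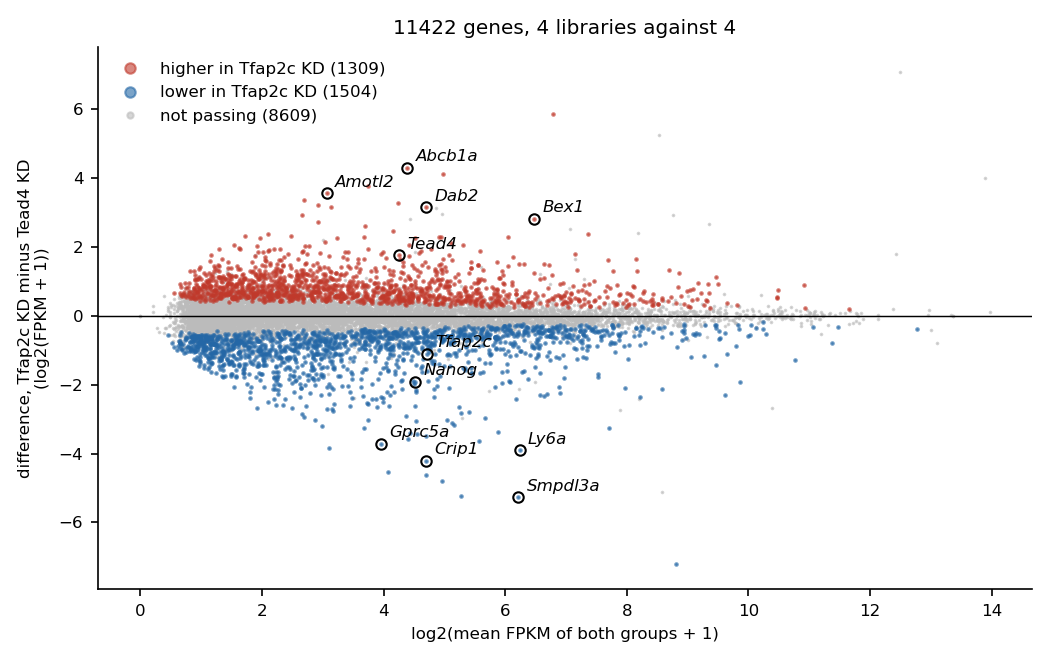
Each point is 1 of 11422 genes, with the log2 mean FPKM of both groups on the horizontal axis and the difference in log2(FPKM + 1), Tfap2c knockdown minus Tead4 knockdown, on the vertical axis; red marks the 1309 genes higher and blue the 1504 genes lower in Tfap2c knockdown. Among the called genes 104 pass 4-fold on the lower side, and 34 on the upper side.

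Most of the steepest positive differences were in genes at a few FPKM or less in Tead4 knockdown. Abcb1a (chr5:8567091-8748575), a drug efflux transporter, had 44.8, 43.6, 26.4 and 40.8 FPKM in Tfap2c knockdown and 1.04, 1.03, 0.422 and 1.56 FPKM in Tead4 knockdown, a difference of 4.31 ± 0.213 (limma, adjusted p = 9.59e-06). The aldo-keto reductase Akr1b8 had 96.2, 60.4, 29.3 and 47.4 FPKM in Tfap2c knockdown and 4.06, 2.83, 1.18 and 1.24 FPKM in Tead4 knockdown. For both genes the lowest Tfap2c knockdown library was at least several-fold above the highest Tead4 knockdown library. Bex1, a small X-linked gene, averaged 152 ± 29.3 FPKM in Tfap2c knockdown and 24.0 ± 15.6 FPKM in Tead4 knockdown (SD, n = 4 each; difference 2.83, adjusted p = 0.000504). Prtn3, Clic3 and Pla2g10, which encode a serine protease, an intracellular chloride channel protein and a secreted phospholipase, differed by 3.29, 2.73 and 2.61. The noncoding transcript Gm24336 had the largest difference among the 12 genes chosen by size. It was listed at 216, 122, 216 and 216 FPKM in Tfap2c knockdown and at 110, 0, 0 and 0 FPKM in Tead4 knockdown, with 0 in all 4 control libraries, and its call was lost without the expression filter (adjusted p = 0.0631).

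The steepest negative differences were in genes well expressed in Tead4 knockdown, and single libraries of Tfap2c knockdown ran from 0 to 27.7 FPKM for these genes. Smpdl3a (chr10:57794544-57811830), a phosphodiesterase related to acid sphingomyelinase, had 1.08, 1.25, 12.7 and 1.60 FPKM in Tfap2c knockdown and 94.5, 116, 177 and 181 FPKM in Tead4 knockdown, a difference of -5.26 ± 0.438 (adjusted p = 0.000111). Dap, a death-associated protein, had 0.974, 0.153, 3.81 and 0.312 FPKM in Tfap2c knockdown and 38.8, 28.9, 92.0 and 76.2 FPKM in Tead4 knockdown. The X-linked homeobox gene Rhox9 had 0.0994, 1.05, 0.447 and 0 FPKM in Tfap2c knockdown and 39.0, 39.4, 25.8 and 21.1 FPKM in Tead4 knockdown (difference -4.54 ± 0.225, adjusted p = 9.59e-06). None of these groups overlapped, which the rule that chose these genes required. Crip1, a LIM domain protein, had 0, 0.326, 4.78 and 4.32 FPKM in Tfap2c knockdown and 45.7, 27.5, 53.4 and 63.5 FPKM in Tead4 knockdown. Mt4, a metallothionein, was listed at 0 in 3 libraries of Tfap2c knockdown and at 0.455 FPKM in the other, against 10.3 to 17.5 FPKM in Tead4 knockdown. Ly6a (the surface antigen Sca-1) had 2.26, 1.97, 27.7 and 17.7 FPKM in Tfap2c knockdown and 88.0, 79.5, 167 and 210 FPKM in Tead4 knockdown, with both groups higher in cross B. Gprc5a, an orphan receptor, and the secreted proteins Cthrc1 and Lect1 differed by -3.71, -3.64 and -3.57. In Tfap2c knockdown the library B1 had the highest value of all of the 12 steepest negative genes except Rhox9. Leaving out B1 gave 2251 genes called in place of 2813.

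**Figure D3:**
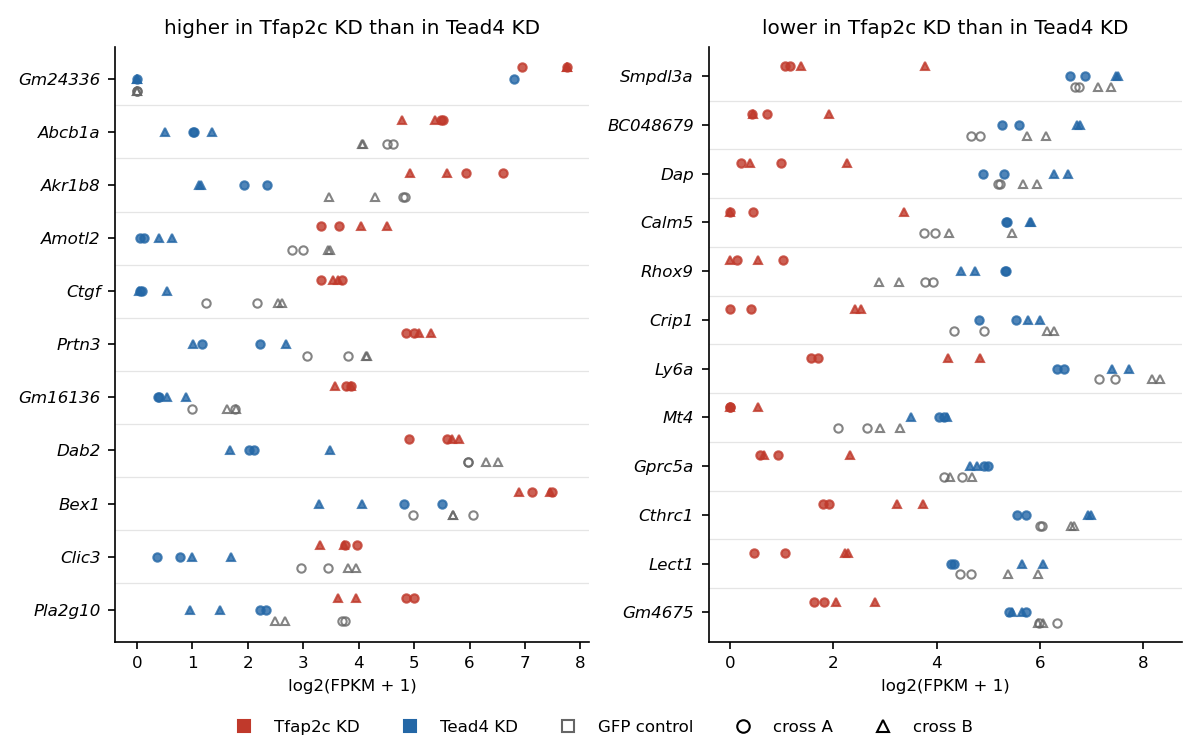
log2(FPKM + 1) in each library for 11 of the 12 genes with the largest positive (left) and the 12 with the largest negative (right) differences chosen by rule, with Tfap2c knockdown in red above Tead4 knockdown in blue and the GFP control as open grey symbols; circles are cross A and triangles cross B. In every row the red and blue symbols are separate, from Smpdl3a (1.08 to 12.7 FPKM against 94.5 to 181 FPKM) to Abcb1a (26.4 to 44.8 FPKM against 0.422 to 1.56 FPKM). The rule that chose these genes required this separation.

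The upstream sequence of these genes was searched for short motifs that the AP-2 and TEAD families are known to bind, GCCNNNGGC and GGAATG, on both strands of the 250 bases before the gene start in RefSeq (GRCm38.p6). Crip1 is shown because it was the only gene among the 12 steepest negative ones with an AP-2 motif, of 7 with a sequence, and Abcb1a and Amotl2 because they led the 5 of 8 steepest positive genes that had a TEAD motif. An AP-2 motif was also in 2 of these 8 positive genes, and a TEAD motif in 1 of the 7 negative ones. The motifs are in capitals, those of AP-2 starting 223, 142 and 122 bases before the start of Crip1, and those of TEAD 240 bases before the start of Abcb1a and 65 bases before a start inside the span of Amotl2. Each sequence is on the plus strand and reads 5′ to 3′.
Crip1, chr12:113151762-113152011: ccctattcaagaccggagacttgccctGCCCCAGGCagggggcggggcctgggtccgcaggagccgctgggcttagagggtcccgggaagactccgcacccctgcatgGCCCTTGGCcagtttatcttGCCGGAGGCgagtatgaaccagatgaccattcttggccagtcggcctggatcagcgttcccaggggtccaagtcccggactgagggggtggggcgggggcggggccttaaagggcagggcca
Abcb1a, chr5:8566841-8567090: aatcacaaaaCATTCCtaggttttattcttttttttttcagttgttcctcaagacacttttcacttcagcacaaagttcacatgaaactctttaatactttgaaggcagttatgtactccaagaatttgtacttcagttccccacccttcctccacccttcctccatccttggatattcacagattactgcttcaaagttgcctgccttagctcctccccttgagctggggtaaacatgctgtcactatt
Amotl2, chr9:102717554-102717803: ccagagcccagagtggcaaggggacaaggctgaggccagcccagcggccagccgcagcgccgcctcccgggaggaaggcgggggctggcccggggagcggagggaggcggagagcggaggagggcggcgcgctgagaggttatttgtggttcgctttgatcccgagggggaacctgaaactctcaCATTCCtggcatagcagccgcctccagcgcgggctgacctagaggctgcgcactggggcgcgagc
Over the whole comparison the AP-2 motif was about as common in each direction: 18.4% of 939 higher genes and 19.3% of 1122 lower genes with a sequence held it, against 19.4% of 8007 genes tested and 13.7% of all 32851 promoters. The TEAD motif was in 13.4% of higher genes and 11.6% of lower genes, against 10.4% of genes tested and 12.6% of all promoters, and in 16% of the 243 higher and 12.6% of the 397 lower genes over 2-fold. In the 100 bases next to the start it was in 4.12% of the higher and 4.28% of the lower genes over 2-fold. The AP-2 motif was in 18.1% of the higher and 21.2% of the lower genes over 2-fold. Median GC content was 58.8% in higher genes, 59.2% in genes tested and 54.8% in the higher genes over 2-fold. These shares were not tested, and a motif in a window is not a bound site.

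Known targets of YAP and TEAD were mostly higher in Tfap2c knockdown than in Tead4 knockdown, a comparison without the control. Of 9 YAP-TEAD targets tested, 5 were higher, 1 was lower and 3 did not pass, with a median difference of 1.30. The called share was 66.7%, beside 24.6% of all genes tested. Amotl2 (chr9:102717091-102733418), an angiomotin family protein that binds YAP1, had 9.03, 11.5, 15.4 and 21.8 FPKM in Tfap2c knockdown and 0.0351, 0.0994, 0.556 and 0.327 FPKM in Tead4 knockdown (3.57 ± 0.170, adjusted p = 9.59e-06). The matricellular gene Ctgf had 11.9, 9.03, 10.6 and 11.4 FPKM in Tfap2c knockdown and 0.0383, 0.0637, 0.0292 and 0.464 FPKM in Tead4 knockdown. In both genes all 4 Tfap2c knockdown libraries were many times above all 4 Tead4 knockdown libraries. The kinase Lats2 had 3.50, 5.09, 6.67 and 6.24 FPKM in Tfap2c knockdown and 0.213, 0.944, 0.594 and 1.31 FPKM in Tead4 knockdown, and the scaffold Ajuba averaged 9.57 ± 1.03 and 2.76 ± 0.468 FPKM in Tfap2c and Tead4 knockdown (SD, n = 4 each). Cyr61 differed by 1.30 (adjusted p = 0.0199), a call lost without Tfap2c knockdown A2, B1 or B2 (adjusted p = 0.0564, 0.0529 and 0.0537) or with the replicate block (adjusted p = 0.0527), and the 1 lower target was lost without Tfap2c knockdown A2 or B2 or Tead4 knockdown B1. These targets were listed as such from other cells, and 15 more of the 24 listed were below the expression filter.

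The other TEAD genes and the coactivators did not follow 1 direction. Tead1 averaged 5.34 ± 0.606 FPKM in Tfap2c knockdown and 2.12 ± 0.357 FPKM in Tead4 knockdown (difference 1.03, adjusted p = 0.00122). Wwtr1, the coactivator also called TAZ, averaged 13.8 ± 2.62 FPKM in Tfap2c knockdown and 26.3 ± 4.81 FPKM in Tead4 knockdown (difference -0.88, adjusted p = 0.00129). Yap1 did not pass, at 4.62 ± 1.44 FPKM in Tfap2c knockdown and 4.94 ± 0.973 FPKM in Tead4 knockdown, with a 95% interval of -0.58 to 0.37. In the Hippo list of 17 genes tested, 5 were higher, 4 lower and 8 not passing (median 0.01, 52.9% called beside 24.6% of all genes). The lower count was 2 without Tead4 knockdown A2 or B1 or Tfap2c knockdown B1 or B2. Amot and Dlg5, an angiomotin and a junction scaffold, were lower (differences -0.72 and -0.76, adjusted p = 0.0128 and 0.0105), so the angiomotin genes Amot and Amotl2 differed in opposite directions.

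Trophectoderm genes differed in both directions. Of 20 tested, 4 were higher and 8 lower in Tfap2c knockdown, and 8 did not pass (median -0.06). The called share was 60%, beside 24.6% of all genes. The higher ones included Dab2, Lrp2 and Krt18. Dab2, an endocytic adaptor, had 47.2, 28.9, 54.9 and 50.6 FPKM in Tfap2c knockdown and 3.34, 3.06, 2.20 and 10.2 FPKM in Tead4 knockdown (3.17 ± 0.343, adjusted p = 0.000405). Its partner receptor Lrp2 (megalin) averaged 2.60 ± 0.997 FPKM in Tfap2c knockdown and 0.310 ± 0.298 FPKM in Tead4 knockdown, and the keratin Krt18 averaged 19.9 ± 5.91 and 4.94 ± 3.26 FPKM in Tfap2c and Tead4 knockdown. The lower ones included the receptor Fgfr2, with 2.45, 2.78, 8.02 and 5.51 FPKM in Tfap2c knockdown and 14.4, 16.5, 25.6 and 16.2 FPKM in Tead4 knockdown (-1.83 ± 0.210, adjusted p = 0.000539). Aqp3, a water and glycerol channel, had 3.07, 3.09, 2.70 and 1.69 FPKM in Tfap2c knockdown and 7.94, 9.09, 9.77 and 18.5 FPKM in Tead4 knockdown. The tight junction gene Cldn4 was also lower (-1.20, adjusted p = 0.00628), as was Aqp9 among the genes of cavity formation (-0.65, adjusted p = 0.00143). Gata3 did not pass (0.42, 95% interval -0.25 to 1.10) and Krt8 did not pass (0.19, -0.45 to 0.83), so the keratin pair Krt8 and Krt18, which assemble together, differed in outcome. Cdx2 reached at most 0.116 FPKM in the 8 libraries and was not tested.

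More pluripotency genes were lower than higher in Tfap2c knockdown. Of 31 tested, 16 were lower, 3 higher and 12 not passing, a share of 61.3% called beside 24.6% of all genes, with a median difference of -0.41. Tdgf1 (Cripto), a coreceptor of Nodal, had 6.74, 9.42, 14.8 and 11 FPKM in Tfap2c knockdown and 124, 97.4, 66.3 and 68.7 FPKM in Tead4 knockdown (-2.97 ± 0.264, adjusted p = 0.00015). The homeobox factor Nanog (chr6:122707489-122714633) had 6.25, 5.48, 11.9 and 10.8 FPKM in Tfap2c knockdown and 35.1, 50.5, 37.0 and 19.1 FPKM in Tead4 knockdown. Every Tfap2c knockdown library was below every Tead4 knockdown library for both genes. Pou5f1 (Oct4) averaged 17.4 ± 4.39 FPKM in Tfap2c knockdown and 38.2 ± 7.81 FPKM in Tead4 knockdown (-1.10, adjusted p = 0.0068), with differences of -0.58 (cross A) and -1.63 (cross B). The orphan receptor Esrrb had 2.17, 1.33, 1.94 and 2.38 FPKM in Tfap2c knockdown and 8.60, 8.75, 11.8 and 9.40 FPKM in Tead4 knockdown (-1.85 ± 0.149, adjusted p = 9.71e-05). Klf4 (-1.20), Tfcp2l1 (-1.84), Sox15 (-0.89), Nr5a2 (-0.61), Prdm14 (-1.09) and Stat3 (-1.14), all regulators of the pluripotent state, were lower too. Dppa3, one of the most abundant transcripts, averaged 6086 ± 660 FPKM in Tfap2c knockdown and 7906 ± 481 FPKM in Tead4 knockdown (-0.38, adjusted p = 0.0143), with differences of -0.59 (cross A) and -0.17 (cross B) and an adjusted p of 0.0503 with the replicate block. Dnmt3l, a cofactor of DNA methyltransferases, and the RNA-binding Lin28a were higher (0.83 and 0.81, adjusted p = 0.00475 and 0.00563). Leaving out 1 library at a time gave 12 to 15 lower members. Sox2 reached at most 0.388 FPKM in the 8 libraries and was not tested. Esrrb was counted in 3 lists, so the lists are not independent of each other.

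**Figure D4:**
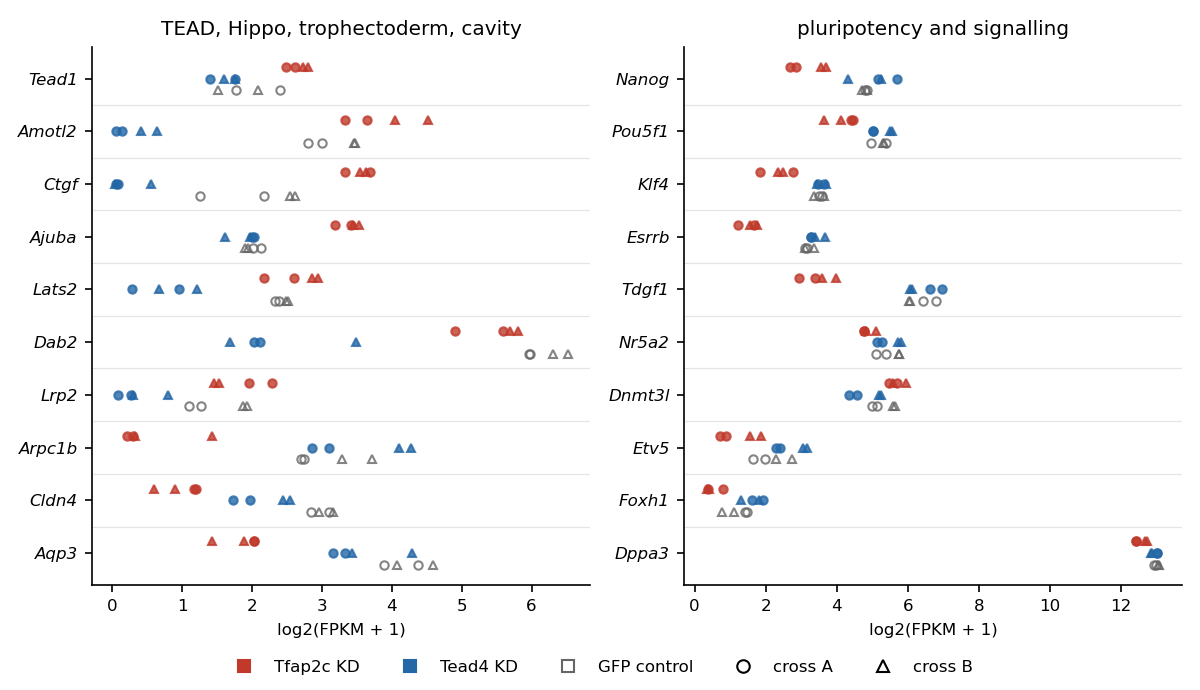
log2(FPKM + 1) in each library for 10 genes of the TEAD, Hippo, trophectoderm, cavity and actin lists (left) and 10 genes of the pluripotency and signalling lists (right), with Tfap2c knockdown in red above Tead4 knockdown in blue and the GFP control as open grey symbols; circles are cross A and triangles cross B. Red lies right of blue for Tead1, Amotl2, Ctgf, Ajuba, Lats2, Dab2, Lrp2 and Dnmt3l, and left of it for the other 12 genes.

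Genes of FGF signalling differed in both directions. Receptors and feedback genes were among the lower ones, while the receptor Fgfr3 was among the higher ones. Of 13 tested, 6 were lower, 2 higher and 5 not passing (median -0.14, 61.5% called beside 24.6% of all genes). Besides Fgfr2, the receptor Fgfr1 averaged 1.88 FPKM in Tfap2c knockdown and 7.09 FPKM in Tead4 knockdown (-1.53, adjusted p = 0.00329). The ETS factor Etv5, a transcriptional target of the pathway, had 0.860, 0.648, 2.65 and 1.96 FPKM in Tfap2c knockdown and 4.31, 3.88, 7.23 and 7.99 FPKM in Tead4 knockdown, higher in cross B in both groups. The feedback inhibitors Spry2 and Spred1 were lower by -1.14 and -1.31 (adjusted p = 0.00124 and 0.0021), whereas the ligand Fgf4 did not pass, at 5.19 FPKM in Tfap2c knockdown and 4.10 FPKM in Tead4 knockdown. Neither higher member was called without Tead4 knockdown B1 or without Tfap2c knockdown A1. Of these members, 1 was called with the replicate block or without Tead4 knockdown A1, A2 or B2 or Tfap2c knockdown B1 or B2. Among 10 Nodal pathway genes tested, 2 were higher, 3 lower and 5 not passing (50.0% called beside 24.6% of all genes). Foxh1, a DNA-binding partner of SMAD2, had 0.300, 0.757, 0.270 and 0.330 FPKM in Tfap2c knockdown and 2.77, 2.07, 2.53 and 1.49 FPKM in Tead4 knockdown (-1.18 ± 0.176, adjusted p = 0.00199). Smad3 was lower (-0.64) and the inhibitor Smad7 higher (0.88, adjusted p = 0.0124); the other higher member was not called with the replicate block or without any 1 library other than Tfap2c knockdown A1. Of 5 primitive endoderm genes tested, the laminin chain Lamc1 was higher (1.19, adjusted p = 0.00317) and Gata6 lower (-0.56, adjusted p = 0.0259), with 2 higher without Tead4 knockdown A1. In this list 40.0% were called, beside 24.6% of all genes. The call of Gata6 ended without Tead4 knockdown B1 or B2 (adjusted p = 0.0779 and 0.0595) and with the replicate block (adjusted p = 0.0723).

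Of 10 genes of the apical polarity complexes tested, 4 were higher in Tfap2c knockdown, 2 lower and 4 not passing (median -0.11). The called share was 60%, beside 24.6% of all genes. The scaffold genes Inadl and Mpp5 were higher (0.89 and 0.64, adjusted p = 0.00476 and 0.00872). Prkcz, an atypical protein kinase C, had 10.0, 6.84, 8.62 and 6.81 FPKM in Tfap2c knockdown and 17.1, 12.9, 17.2 and 21.8 FPKM in Tead4 knockdown (-1.0 ± 0.179, adjusted p = 0.0046), and Crb3 was lower as well (-0.42, adjusted p = 0.00599). Pard6b did not pass, at 2.19 ± 0.541 FPKM in Tfap2c knockdown and 4.05 ± 2.26 FPKM in Tead4 knockdown (95% interval -1.08 to -0.03 before adjustment, adjusted p = 0.115). It was called lower in a fit of all 16 libraries (-0.56, adjusted p = 0.0433) and in cross B alone (-1.07, adjusted p = 0.0379). In the apical cortex list of 8 genes tested, 3 were higher and 5 did not pass (37.5% called beside 24.6%). The membrane-bound myosin Myo1c was higher by 0.88 (adjusted p = 0.00372). The microvillus linker Ezr did not pass (-0.21, 95% interval -0.64 to 0.22), with values in cross A and cross B of opposite sign (0.22 and -0.63), and it was called lower in cross B alone (adjusted p = 0.0433). Of 12 basolateral genes tested, 1 was higher, Dlg3 (0.87, adjusted p = 0.0102), and 11 did not pass, a share of 8.33% called, below the background. The higher members numbered 2 without Tfap2c knockdown A1 or Tead4 knockdown A1 or A2.

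Among 55 actin regulators tested, 6 were higher, 12 lower and 37 did not pass, a called share of 32.7% beside 24.6%. The largest difference was in Arpc1b, a subunit of the ARP2/3 complex that nucleates branched actin, with 0.162, 0.228, 1.69 and 0.257 FPKM in Tfap2c knockdown and 7.61, 6.27, 16.2 and 18.3 FPKM in Tead4 knockdown (-3.02 ± 0.248, adjusted p = 0.000102). Capg, which caps actin filaments, had 2.24, 1.95, 5.32 and 8.10 FPKM in Tfap2c knockdown and 9.54, 13, 46.2 and 43.9 FPKM in Tead4 knockdown. Cfl1 (cofilin), Cap1, Coro1c, Zyx and Pdlim1 were lower by -0.67, -0.78, -0.86, -0.88 and -1.53. The calponins were the clearest exception. Cnn3 had 300, 306, 232 and 258 FPKM in Tfap2c knockdown and 53, 51.1, 52.4 and 51.2 FPKM in Tead4 knockdown (2.37 ± 0.088, adjusted p = 4.03e-06), and Cnn2 was higher by 1.5. Rhoa, which drives actomyosin contraction, did not pass (-0.22, 95% interval -0.42 to -0.02 before adjustment, adjusted p = 0.101). It was called lower in a fit of all 16 libraries (-0.22, adjusted p = 0.0431) and in cross B alone (-0.38, adjusted p = 0.0437). Of 18 junction genes tested, 1 was higher (Marveld2, 0.72) and 2 lower (Cldn4 and Pvrl2), and 15 did not pass. This is a called share of 16.7%, below the background of 24.6%. Without Tfap2c knockdown A1 or Tead4 knockdown A1 2 were higher. The call of Pvrl2 ended without any 1 library other than Tfap2c knockdown A1 (adjusted p = 0.063 to 0.124) and with the replicate block (adjusted p = 0.075). E-cadherin, Cdh1, averaged 15.6 ± 1.73 FPKM in Tfap2c knockdown and 14.1 ± 5.28 FPKM in Tead4 knockdown (0.19, 95% interval -0.27 to 0.66), with 0.71 in cross A and -0.32 in cross B.

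More lysosomal genes were lower than higher in Tfap2c knockdown: 15 of 32 tested were lower, 3 higher and 14 not passing, with a median difference of -0.45. The called share was 56.2%, beside 24.6% of all genes. Tfeb, a transcription factor that activates lysosomal genes, had 0, 0.0775, 1.64 and 0.784 FPKM in Tfap2c knockdown and 8.92, 9.39, 12.8 and 8.76 FPKM in Tead4 knockdown (-2.86 ± 0.230, adjusted p = 9.71e-05). The protease Ctsh had 19.2, 16.1, 30.0 and 24.7 FPKM in Tfap2c knockdown and 70.8, 62.0, 76.3 and 75.7 FPKM in Tead4 knockdown. Grn (progranulin) averaged 41.4 ± 11.1 FPKM in Tfap2c knockdown and 92.4 ± 14.4 FPKM in Tead4 knockdown. The groups of all 3 genes were separate. The cathepsins Ctsa, Ctsb, Ctsc, Ctsd and Ctsz were lower by -1.15, -1.12, -0.63, -0.90 and -0.52, and Hexa, a hexosaminidase subunit, was lower by -1.98 (adjusted p = 0.000405). Of the higher members, the membrane protein gene Lamp1 was not called with the replicate block or without Tfap2c knockdown A1 or A2 or Tead4 knockdown A1, A2 or B1, and Lamp2 was not called without Tfap2c knockdown A2 or Tead4 knockdown B2. Among 20 endocytosis genes tested, 2 were higher (Dab2 and Lrp2), 7 lower and 11 not passing (45.0% called beside 24.6%). The caveolin gene Cav2 had 0.0515, 0.387, 0.343 and 0.155 FPKM in Tfap2c knockdown and 4.65, 3.44, 5.69 and 5.23 FPKM in Tead4 knockdown (-2.21 ± 0.167, adjusted p = 7.17e-05). Cav1 and the clathrin adaptor gene Eps15 were also lower (-1.24 and -1.14), and without Tead4 knockdown B2 or with the replicate block the lower members numbered 4.

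Of 11 genes of the interferon and double-stranded RNA response tested, 5 were lower in Tfap2c knockdown, 1 higher and 5 not passing (median -0.42). The called share was 54.5%, beside 24.6% of all genes, although both groups had received double-stranded RNA. Irf9, a factor of the interferon response, had 0.619, 1.42, 1.92 and 1.62 FPKM in Tfap2c knockdown and 12.8, 11.1, 16.3 and 17.5 FPKM in Tead4 knockdown (-2.70 ± 0.156, adjusted p = 2.32e-05). Ifitm2, an interferon-induced membrane protein, had 24.4, 30.5, 30.0 and 21.6 FPKM in Tfap2c knockdown and 76.1, 89.1, 108 and 152 FPKM in Tead4 knockdown. The control averaged 7.19 ± 1.40 FPKM of Irf9 and 63.0 ± 25.6 FPKM of Ifitm2, between both knockdowns. Stat2, the partner of IRF9, was the 1 higher member (0.69, adjusted p = 0.0194), a call that ended without Tfap2c knockdown A2, B1 or B2 or Tead4 knockdown B1, and the lower members numbered 3 without Tead4 knockdown B1 or B2. The amount of RNA injected per group was not analysed here, and its part in these values was not tested.

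In the p53 list of 23 genes tested, 6 were higher in Tfap2c knockdown, 1 lower and 16 not passing (median 0.35, with 19 of 23 above 0), a called share of 30.4% near the background of 24.6%. Rrm2b, a ribonucleotide reductase subunit, had 5.09, 5.79, 6.04 and 5.78 FPKM in Tfap2c knockdown and 2.94, 2.67, 3.04 and 2.52 FPKM in Tead4 knockdown (0.82 ± 0.126, adjusted p = 0.0023). Ei24 and Trp53inp1 were higher by 1.03 and 0.59. Perp, a junction protein that p53 and p63 activate, was the lower member, with 9.57, 6.40, 13.8 and 13.5 FPKM in Tfap2c knockdown and 20.4, 25.2, 62.2 and 75.4 FPKM in Tead4 knockdown. Cdkn1a, the cell cycle inhibitor p21, averaged 376 ± 168 FPKM in Tfap2c knockdown and 287 ± 145 FPKM in Tead4 knockdown, groups that overlapped, and its call (0.43, adjusted p = 0.0325) ended without any of Tfap2c knockdown A1 or B2 and Tead4 knockdown A1, B1 or B2 (adjusted p = 0.0516 to 0.0935) and with the replicate block (adjusted p = 0.0722). The higher members numbered 3 without Tfap2c knockdown A1 or B2 or Tead4 knockdown B1. Of 22 genes of the integrated stress response tested, 2 were higher, 5 lower and 15 not passing, a called share of 31.8% beside the same background; Cebpg (-1.12) and Nupr1 (-1.11) were lower and the serine synthesis enzyme Psat1 higher (0.49). The lower members of this list numbered 3 with the replicate block or without Tfap2c knockdown A2 or B2 or Tead4 knockdown B2, and 2 without Tfap2c knockdown B1. The higher members numbered 1 with the block or without any 1 library other than Tead4 knockdown B2. Nupr1 averaged 55.6 ± 14.1 FPKM in Tfap2c knockdown, 128 ± 58.8 FPKM in Tead4 knockdown and 40.8 ± 3.58 FPKM in the GFP control.

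In sterol synthesis 7 of 20 genes tested were higher in Tfap2c knockdown, 3 lower and 10 not passing (median 0.29, 50.0% called beside 24.6%). Dhcr7, the enzyme of the last step to cholesterol, had 12.9, 11.5, 10.4 and 9.22 FPKM in Tfap2c knockdown and 3.80, 3.94, 4.97 and 5.66 FPKM in Tead4 knockdown (1.10 ± 0.161, adjusted p = 0.00177). Pmvk, Fdps and Sqle, enzymes of earlier steps, were higher by 1.25, 0.90 and 0.71, and Idi1 was lower (-0.82, adjusted p = 0.00976). The lower members numbered 1 with the replicate block or without Tead4 knockdown A2 or Tfap2c knockdown B1 or B2. Among 17 glycolysis genes tested, 2 were higher, 3 lower and 12 not passing, a called share of 29.4% near the background of 24.6%. The hexokinase Hk1 and the glucose transporter Slc2a3 were lower (-0.96 and -0.80, limma adjusted p = 0.0104 and 0.0164). Of the 2 higher members, 1 was called with the replicate block or without Tfap2c knockdown A1 or Tead4 knockdown A1, and 0 without Tfap2c knockdown B2 or Tead4 knockdown B1.

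Genes of mitosis, maternal transcripts and mitochondrial transcripts differed no more often than all genes. Of 32 G2/M genes tested, 2 were higher, 5 lower and 25 not passing, a called share of 21.9% beside the background of 24.6%. The higher members numbered 5 without Tfap2c knockdown A1. Cenpa, the centromeric histone, had 94.9, 95.7, 100 and 88.3 FPKM in Tfap2c knockdown and 217, 234, 228 and 217 FPKM in Tead4 knockdown (-1.23 ± 0.0747, adjusted p = 2.57e-05), and Fbxo5, which restrains the anaphase-promoting complex, had 22.6, 24.4, 29.2 and 31.9 FPKM in Tfap2c knockdown and 58.1, 58.3, 87.6 and 86.7 FPKM in Tead4 knockdown. Of 20 oocyte transcripts tested, 3 were called (15.0%), and of 24 transcripts typical of the 2-cell stage, 4 were called (16.7%). The higher oocyte transcripts, 2 in the full fit, numbered 0 with the replicate block or without Tead4 knockdown B2, and 1 without any other cross B library. The 1 lower transcript of the 2-cell list, Dppa4, was not called with the block or with any 1 library left out. Padi6, an oocyte enzyme, was lower (-0.96, adjusted p = 0.00538), and Arg2 and Sp110 of the 2-cell list were higher (1.16 and 0.72). None of the 13 mitochondrially encoded genes passed in limma (1 at an unadjusted p under 0.05), and leaving out Tfap2c knockdown B1 gave 1 call.

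**Figure D5:**
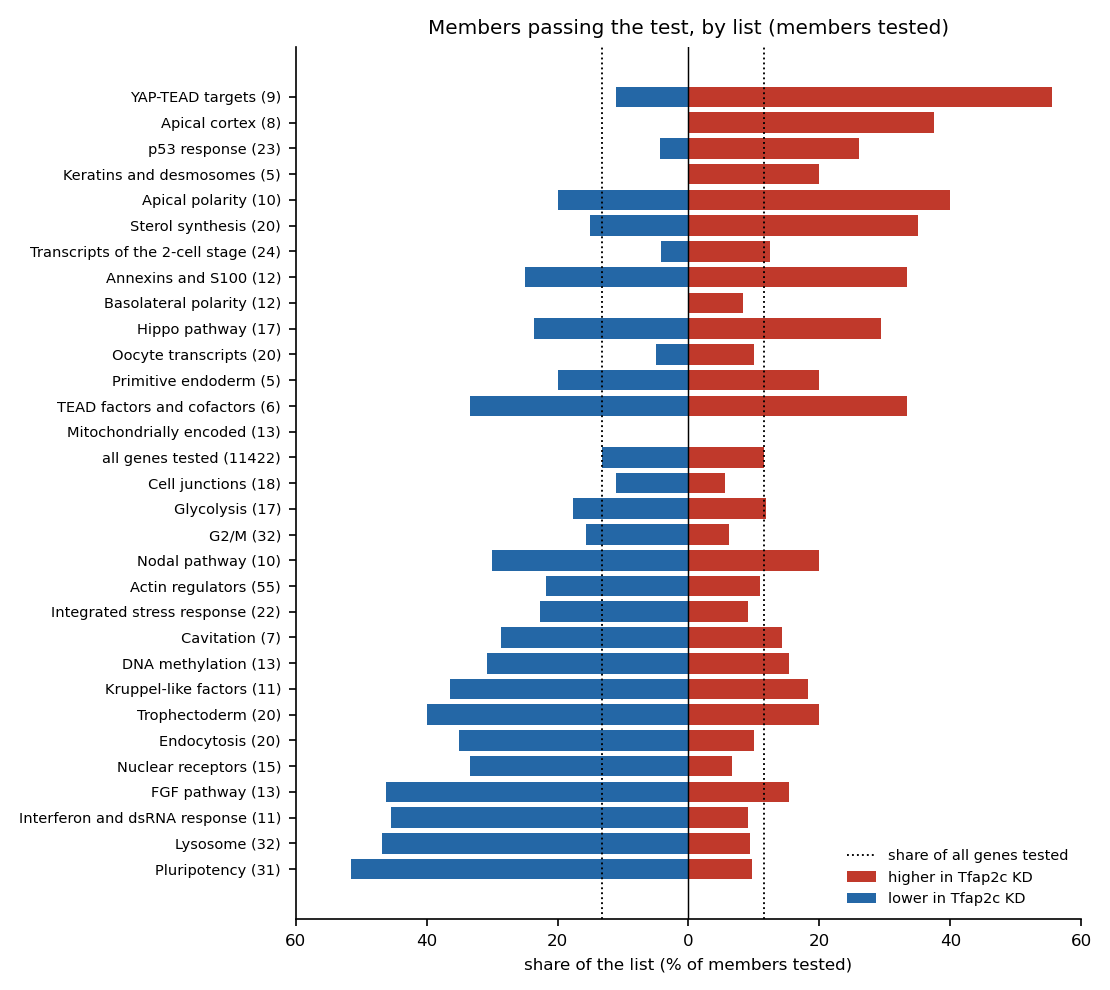
Share of each list's tested members that passed the test, with members higher in Tfap2c knockdown to the right in red and members lower in Tfap2c knockdown to the left in blue; the number tested is in brackets and dotted lines mark the 11.5% higher and 13.2% lower of all 11422 genes. Lists with fewer than 5 members tested are not drawn. The YAP-TEAD targets reach furthest to the right (5 of 9 higher), and the pluripotency genes furthest to the left (16 of 31 lower).

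For many genes the data bounded the difference rather than finding one. Of 8609 genes that did not pass, 3357 had a 95% interval within 0.5 of 0 on the log2 scale, and 1003 had an interval that reached beyond 1. A lack of a call in this last set says that the difference was not resolved with 4 libraries a group.

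The 2813 calls were made on both crosses together. Each of them had the same sign in cross A and cross B. The fit all but requires this, because a gap between crosses counts there as spread, so it is no separate support. Fitted within a cross, 2 libraries against 2, cross A gave 1255 genes and cross B 2361 genes, of which 1058 and 1689 were shared with the 2813. A group by cross interaction passed for 218 genes (1.91% of those tested; 2469 at an unadjusted p under 0.05), and 56 of these were among the 2813. Klf17, a Krüppel-like factor, had 129, 129, 120 and 125 FPKM in Tfap2c knockdown and 111, 124, 50.3 and 38.4 FPKM in Tead4 knockdown, and the low values were those of cross B. Aqp11 had 68.2, 77.2, 41.1 and 50.7 FPKM in Tfap2c knockdown and 60.7, 60.4, 12.3 and 10.5 FPKM in Tead4 knockdown, again with the gap in cross B. Their overall calls (adjusted p = 0.0448 and 0.0303) both ended without any 1 of the 4 cross B libraries (adjusted p = 0.0809 to 0.129), that of Klf17 also without Tead4 knockdown A1 (adjusted p = 0.0526), and both with the replicate block (adjusted p = 0.102 and 0.0797). The interaction count fell to between 1 and 35 without any 1 library other than Tfap2c knockdown B2, and was 147 without that one.

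The libraries outside the test were placed beside the called genes as a description. The mean of the GFP control lay nearer to Tead4 knockdown than to Tfap2c knockdown for 76.1% of the 1309 higher genes and 75.9% of the 1504 lower genes, beside 64.9% of all genes tested. It lay between both knockdown means for 800 of the higher and 1086 of the lower genes. The mean of the double knockdown lay nearer to Tfap2c knockdown for 85% of the higher and 90.1% of the lower genes, beside 68.1% of all genes tested. Single genes varied in how closely they followed this pattern. Dab2 averaged 45.4 ± 11.4 FPKM in Tfap2c knockdown, 4.70 ± 3.70 FPKM in Tead4 knockdown, 16.8 FPKM in double knockdown and 72.9 ± 13.9 FPKM in the GFP control, which was nearer to Tfap2c knockdown. Ctgf averaged 10.8 ± 1.26 FPKM in Tfap2c knockdown, 0.149 ± 0.211 FPKM in Tead4 knockdown, 7.41 FPKM in double knockdown and 3.71 ± 1.70 FPKM in the GFP control, so the control lay between both knockdowns and double knockdown lay near Tfap2c knockdown. Esrrb averaged 1.95 ± 0.454 FPKM in Tfap2c knockdown, 9.63 ± 1.46 FPKM in Tead4 knockdown, 3.31 FPKM in double knockdown and 8.13 ± 0.727 FPKM in the GFP control, which was close to Tead4 knockdown.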

How the data were processed

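RNA was measured in 16 pools of 8-cell embryos. Deposited values are FPKM per gene, scaled by the authors to library size and transcript length; CASAVA, Trim Galore, STAR, Cufflinks and mm10 are named in the submitters' processing notes, with no role or version, and the annotation is not stated. Read counts were not used here, so depth is unknown, counting error cannot be computed, and the spread between pools sets the precision. Of 43496 lines, 59 repeated an identifier and were summed, which left 43437 genes, and 27 names turned into dates by a spreadsheet were restored from identifiers. Places are those of RefSeq on GRCm38.p6, matched by symbol or unique synonym for 33037 genes. Promoter sequences are from RefSeq on the same assembly, matched for 8007 genes tested; their starts lay at the outer end of the gene for 4487.

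The filter kept genes that reached 1 FPKM in 4 or more of all 16 libraries. Values were taken as log2(FPKM + 1), which understates differences of low genes, and analysed by limma 3.58.1 (R 4.3.3; lmFit, eBayes with trend) on the 8 libraries of both single knockdowns, with terms for group and cross. Adjusted p is Benjamini-Hochberg over all genes tested, two-sided, called under 0.05. A second fit added the group by cross interaction. The steps were tested on simulated data. Deviations from group means correlated between same-numbered libraries by 0.101 to 0.201, and after cross was taken out by -0.0468 (cross A) and 0.0237 (cross B), so the shared part is cross, which is in the fit; the block by replicate number is given beside results it changes.

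The genes and the 34 lists were chosen with earlier results of these data known. Genes named were the 12 largest called differences each way (mean of at least 5 FPKM in the higher group, no overlap, same sign in both crosses), up to 3 called members of each list by lowest p, and 31 genes looked up whatever their values; other list members are examples chosen after their values were seen. Values of some genes are not reported here, though they stay in the fit and the counts. Lists are described by counts and medians, with no set test. Alternatives changed the pseudocount, filter, scaling, covariates, trend and libraries.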

Additional observations from a re-analysis of the deposited data

Results flagged for a closer look

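Among the genes named, 214 groups of 4 libraries were examined for 1 library far from the other 3, and 11 stood out, where chance gives about 1 in 20. In Tfap2c knockdown the library B1 was the highest for Smpdl3a (12.75 FPKM, against 1.08, 1.25 and 1.60 FPKM in the others), Calm5 (9.346 FPKM, with the others at 0.364 FPKM or less), Arpc1b (1.691 FPKM, against 0.162 to 0.257 FPKM) and Mt4 (0.4548 FPKM, with the others listed at 0). The same library was the lowest of its group for Ooep (0.9891 FPKM, against 1.28 to 1.35 FPKM). In Tfap2c knockdown A2, Foxh1 was high (0.7567 FPKM, against 0.270 to 0.330 FPKM) and Gm24336 low (122.1 FPKM, with the others at 216 FPKM), and in Tfap2c knockdown A1, Marveld2 was low (2.129 FPKM, against 2.72 to 2.85 FPKM). In Tead4 knockdown B2, Ajuba was low (2.069 FPKM, against 2.92 to 3.08 FPKM) and Ctgf high (0.4639 FPKM, against 0.0292 to 0.0637 FPKM). In Tead4 knockdown A1, Gm24336 was at 110.1 FPKM, with the others listed at 0. All of these libraries kept their side relative to the other group. For Smpdl3a, Calm5, Mt4, Gm24336 and Ctgf the rule that chose the genes required this.

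The difference between both knockdowns depended on the cross for 3 of the named genes by the limma interaction test. Aqp11 differed by 1.91 in cross B and 0.256 in cross A, a gap of 1.656 (adjusted p = 0.0255). Klf17 differed by 1.46 in cross B and 0.136 in cross A, a gap of 1.326 (adjusted p = 0.0298). Ly6a differed by -3.03 in cross B and -4.77 in cross A, a gap of 1.739 (adjusted p = 0.041). With 2 libraries a group in each cross, the part of single pools in these gaps was not tested.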

How the results depend on the processing

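Of 110 named genes tested, 60 kept their direction and their side of the threshold under every alternative in which they were fitted. The stricter filter fitted 88 of the 110. With a pseudocount of 5, 331 genes differed over 2-fold, and with the stricter filter (5 FPKM) 505. Without the cross term 1758 genes differed, 753 of them higher. In cross A alone 1255 differed, 546 higher and 709 lower. The replicate block gave 851 higher genes and ended the calls of 12 named genes, among them Anxa7, Npm2, Ooep, Dppa4 and S100a11, and changed no call of the other 98. Leaving out 1 library at a time gave 848 to 1120 higher genes. The number of genes whose difference depended on cross was 35 with no filter, 361 with the stricter filter, 341 in a fit of all 16 libraries, 54 without the variance trend, and 1 to 147 with 1 library left out. Quantile normalization called 2833 genes, 49.7% of them higher, against 46.5% in the full fit. Of genes that did not pass, Ezr was at 0.22 in cross A alone and called lower in cross B alone (-0.63, limma adjusted p = 0.0433), as were Pard6b and Rhoa, and in cross B alone Cdh1 was at -0.32, Krt8 at -0.42 and Yap1 at 0.34. With 1 library left out, Yap1 ran from -0.23 to 0.061 and Krt8 from -0.056 to 0.45. The causes of these changes were not tested. No scaling moved the median difference of all genes by over 0.1. Depth is unknown, so values near 0 FPKM have no counting error attached.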

Other observations

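Several lists outside the account above held large single differences. Of 12 annexin and S100 genes tested, 4 were higher in Tfap2c knockdown, 3 lower and 5 not passing (58.3% called beside 24.6%). Anxa2, a membrane-binding protein, had 36.8, 26.7, 28.2 and 22.9 FPKM in Tfap2c knockdown and 7.53, 6.39, 10.4 and 12.5 FPKM in Tead4 knockdown (1.56, limma adjusted p = 0.00123), while Anxa11 was lower (-1.0, adjusted p = 0.00144). The higher members of this list numbered 1 to 3 with any 1 library left out and 1 with the replicate block. The lower members numbered 1 without Tfap2c knockdown B2 or Tead4 knockdown B1 or B2, and 5 without Tead4 knockdown A2. Of 11 Krüppel-like factors tested, 2 were higher, 4 lower and 5 not passing (54.5% called beside 24.6%). With the replicate block 1 was higher and 2 lower, as without Tead4 knockdown B1 or B2. Without Tfap2c knockdown B1 or B2 or Tead4 knockdown A1, 1 was higher. Klf10 had 4.23, 2.92, 4.69 and 1.60 FPKM in Tfap2c knockdown and 8.00, 11.1, 17.9 and 17.6 FPKM in Tead4 knockdown (-1.74, adjusted p = 0.00404), and Klf11 was higher (0.80, adjusted p = 0.00593).

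Of 15 nuclear receptor genes tested, 1 was higher, 5 lower and 9 not passing (40.0% called beside 24.6%). With the replicate block 0 were higher. With 1 library left out 0 to 2 were higher. The count was 2 without Tfap2c knockdown B1 and 0 without Tfap2c knockdown A1 or B2 or Tead4 knockdown A1, B1 or B2. The retinoic acid receptor gene Rarb had 2.32, 1.52, 0.647 and 2.01 FPKM in Tfap2c knockdown and 10.3, 7.30, 3.65 and 5.99 FPKM in Tead4 knockdown (-1.55, adjusted p = 0.00262). Of 13 DNA methylation genes tested, 2 were higher, 4 lower and 7 not passing (46.2% called beside 24.6%). With the replicate block or without Tfap2c knockdown B1 or B2 1 was lower. Without Tfap2c knockdown A2 or Tead4 knockdown B1 or B2 2 were lower. Zfp57, which protects imprinted methylation, averaged 13.1 ± 5.78 FPKM in Tfap2c knockdown and 7.46 ± 2.35 FPKM in Tead4 knockdown (0.68, adjusted p = 0.00556), with both groups higher in cross B. Of 5 keratin and desmosome genes tested, 1 was higher and 4 did not pass. None of the 5 cumulus, sperm and blood markers tested passed in limma, with 2 at an unadjusted p under 0.05, Hba-a1 and Amhr2 (adjusted p = 0.0557 and 0.0916), both with higher means in Tfap2c knockdown (32.9 and 24.9 FPKM) than in Tead4 knockdown (19.9 and 18.1 FPKM). Without Tfap2c knockdown B1 or B2, 1 blood marker was called higher, and without Tead4 knockdown A1, 1 cumulus marker was.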
